A study of Mus musculus with 12 samples.

Results

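The integrated stress response genes examined here were Atf4, Atf5, Ddit3, Asns, Trib3, Fgf21, Gdf15, Psat1, Phgdh and Mthfd2. These 10 genes were chosen by name, with earlier results of these data known, as a readout of mitochondrial stress. Each was represented by the probe set annotated to that gene alone with the highest mean over the 12 arrays. By this rule 9 of the 10 were measured, among 22180 genes tested in all, and each of the 9 had 1 such probe set, so no choice between probe sets was made. Gdf15 was not analysed here.

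RNA from whole hearts of male FVB mice aged 15 weeks was hybridised to Affymetrix Mouse Gene 2.0 ST arrays, with 1 heart per array and 3 hearts in each of 4 genotypes. WT mice carried neither allele. ErbB2 KI mice carried an ErbB2 cDNA knock-in that acts as a hypomorph of this receptor tyrosine kinase, ERRα KO mice lacked the nuclear receptor ERRα (gene Esrra) throughout the body, and KI:KO mice came from crossing the ErbB2 KI and ERRα KO lines. Neither allele was restricted to cardiomyocytes, and the labels name no treatment. All values below are log2 values after robust multi-array averaging (RMA), so that a difference of 1 is a doubling of signal, and the log2 values of different genes cannot be set against each other.

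In the integrated stress response, kinases that sense amino acid shortage, misfolded proteins in the endoplasmic reticulum (ER), haem shortage or viral RNA phosphorylate the translation factor eIF2α. Most protein synthesis then slows while ATF4 and a few other proteins are translated more, and ATF4 activates genes of amino acid synthesis, amino acid import and tRNA charging. Failing mitochondria start the same programme in heart and skeletal muscle, where Mthfd2, the serine synthesis enzymes and the secreted factors Fgf21 and Gdf15 are among its best known outputs. Because ATF4 and ATF5 are controlled largely through translation, their mRNA is an incomplete measure of their activity.

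ATF4 pairs with C/EBP proteins on the element TGATGNAA (reverse complement TTNCATCA). In RefSeq promoter windows of GRCm38.p6, running from 250 bases before to 50 bases after each gene start, this motif was found on either strand in 3 of the 10 genes (30%, Asns, Fgf21 and Trib3), in 9 of 24 other ATF4 targets with a window (37.5%) and in 1304 of all 32851 windows (3.97%). In the lists a gene counted once if any of its windows matched, whereas the last share counts windows. The lists were themselves compiled from known ATF4 targets, so these shares describe the lists and nothing more. The 60-base stretches shown here carry the match in capitals and were chosen because Asns rose, Fgf21 was not called, and Vldlr and Got1 are targets from the wider list that were called in opposite directions.
Asns, chr6:7693210-7693269, minus strand: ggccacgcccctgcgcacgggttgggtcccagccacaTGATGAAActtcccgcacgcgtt
Fgf21, chr7:45615596-45615655, minus strand: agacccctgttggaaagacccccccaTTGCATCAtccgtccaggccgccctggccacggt
Vldlr, chr19:27216794-27216853, plus strand: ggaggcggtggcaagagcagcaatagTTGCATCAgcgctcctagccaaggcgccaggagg
Got1, chr19:43524674-43524733, minus strand: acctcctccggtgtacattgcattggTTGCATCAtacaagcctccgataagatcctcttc
The Asns match starts 23 bases before the gene start, and those of Fgf21, Vldlr and Got1 start 139, 200 and 102 bases before theirs. A match is a description of the sequence, and no binding was measured.

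Checks of the arrays came first. Esrra lay between 6.17 and 6.43 in the ERRα KO and KI:KO arrays and between 7.40 and 7.74 in the others, and Erbb2 lay between 5.61 and 5.97 in the ErbB2 KI and KI:KO arrays and between 6.39 and 6.80 in the others. The mean log2 value over 9 cardiomyocyte markers was 11.95 to 12.07 in the KI:KO arrays and 12.03 to 12.19 in the others. Correlations between arrays over all 41345 probe sets were 0.975 to 0.988. A set of 4 arrays, 1 from each genotype (replicate 2 of WT and of ERRα KO, replicate 3 of ErbB2 KI and of KI:KO), deviated from their group means together, with r of 0.18 to 0.25 over genes against -0.19 to 0.17 for the other pairs. No label names this set. It was picked from these same values for that likeness, so a test of it describes the set and cannot establish it. With this set as a block, 391 genes differed between it and the other arrays (limma, adjusted p under 0.05). None of the 9 members was among them, but Mthfd2 was close to the threshold, with 0.53 higher values in the set (adjusted p = 0.053). The KI:KO differences of Atf4, Atf5, Asns and Mthfd2 are given with and without the set below. Without it the other 5 members differed from WT by -0.10 (Fgf21) to 0.42 (Psat1) in KI:KO hearts, and none was called.

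The question was which of these genes moved when ErbB2 signalling was reduced, when ERRα was lost, or with both. In KI:KO hearts the mitochondrial folate enzyme Mthfd2 rose 2.65-fold, the asparagine synthetase Asns 1.62-fold and the transcription factor Atf5 1.48-fold. In ERRα KO hearts Asns rose 1.35-fold, and in ErbB2 KI hearts no member was called. Ddit3, Trib3, Phgdh and Fgf21 were not called in any comparison, and their difference from WT lay between -0.10 and 0.21 in the 3 genotypes. In whole-heart RNA, fewer cells of a type and less RNA per cell cannot be told apart.

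A gene was called at a limma adjusted p under 0.05 over all 22180 genes. KI:KO against WT called 3 of the 9 members, all higher, where 5.60% of all genes were called in either direction. ERRα KO against WT called 1 of 9, where 2.35% of all genes were called. ErbB2 KI against WT called 0 of 9, where 0.0135% of all genes were called, although 2 members (Atf4 and Asns) had an unadjusted p under 0.05. The median difference of the 9 members was 0.35 for KI:KO, 0.11 for ERRα KO and 0.09 for ErbB2 KI, while the median of all genes was -0.01, -0.00 and -0.00. The 3 comparisons share the same WT arrays, so they are not independent of each other. The members were chosen with earlier results of these data known. Counts of them, here and under the looser rules below, describe the members and are no independent test.

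Looser rules gave larger counts for the members and for the background alike. The study's methods set a threshold of 1.2-fold or more with p below 0.05 before adjustment, there from a one-way analysis of variance. With that threshold on the limma fold and unadjusted p, KI:KO hearts had 5 of 9 members (Atf4, Atf5, Asns, Psat1 and Mthfd2) against 14.6% of all genes. ERRα KO hearts had 3 (Atf5, Asns and Mthfd2) against 10.4%, and ErbB2 KI hearts had 2 (Atf4 and Asns) against 4.30%. Counting instead the genes whose 3 arrays lay wholly outside the 3 WT arrays gave 5 members in KI:KO hearts against 22.9% of all genes, 2 in ERRα KO hearts (Atf5 and Asns) against 20.1%, and 2 in ErbB2 KI hearts (Atf4 and Asns) against 11.7%. All members that met these looser rules were higher than in WT.

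**Figure D1:**
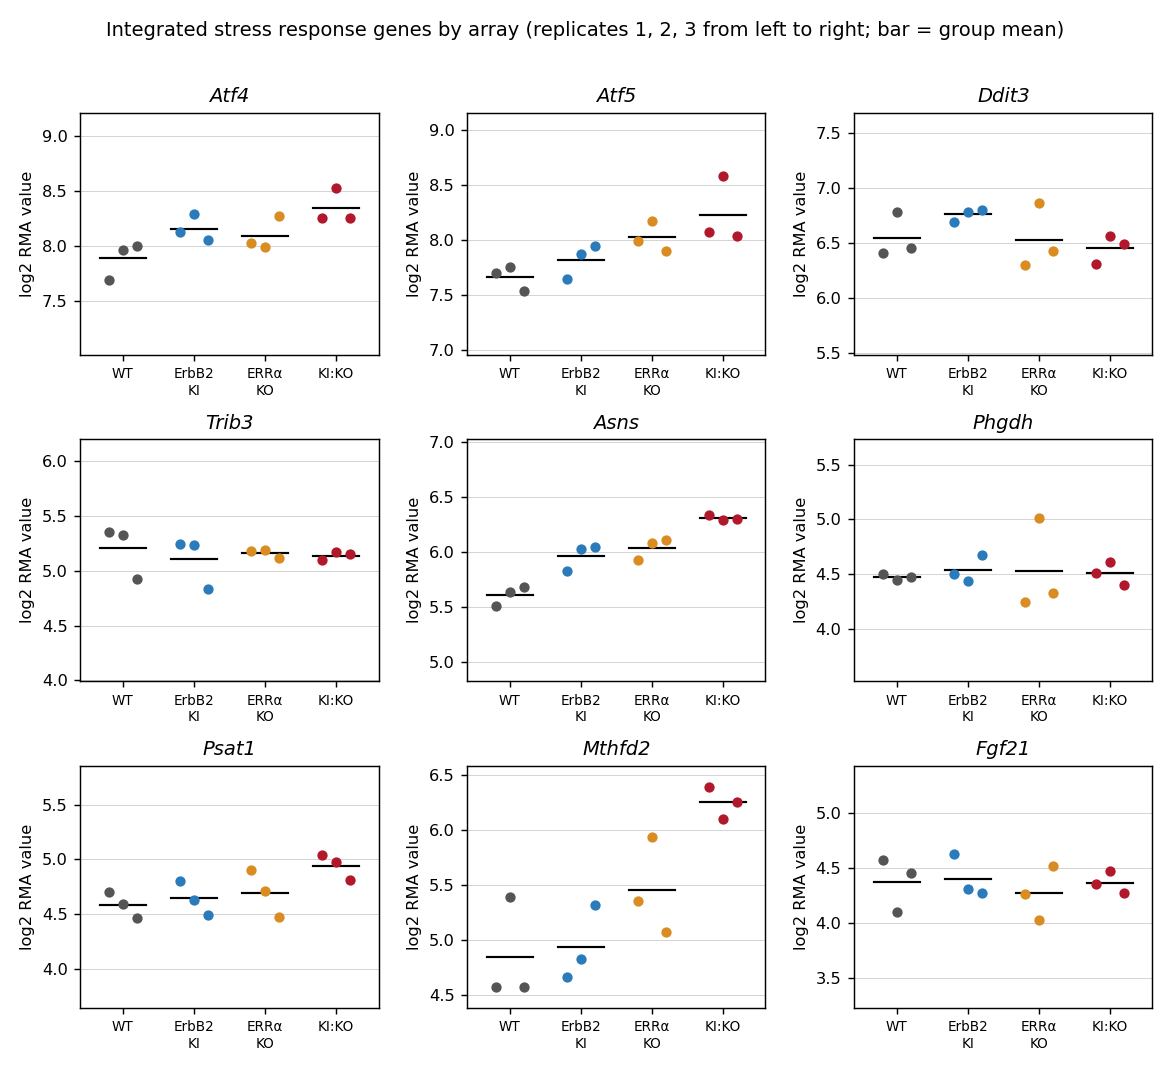
Log2 RMA value (y axis, same height in every panel) of the 9 measured genes in each of the 12 arrays, by genotype, with replicates 1, 2 and 3 from left to right and a bar at the group mean. The Asns and Mthfd2 values of the KI:KO arrays lie above all others, whereas those of Ddit3, Trib3, Phgdh and Fgf21 overlap with WT in all 3 genotypes.

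Atf4 encodes the central transcription factor of the response. Its log2 values were 7.70, 7.97 and 8.01 in the WT arrays, 8.13, 8.29 and 8.05 in the ErbB2 KI arrays, 8.02, 7.995 and 8.27 in the ERRα KO arrays and 8.25, 8.53 and 8.25 in the KI:KO arrays. The KI:KO and ErbB2 KI arrays lay above all WT arrays, the latter by little, and the ERRα KO arrays overlapped with WT. The difference of 0.46 ± 0.12 (SE) in KI:KO hearts had a 95% confidence interval of 0.19 to 0.72 and just missed the threshold (adjusted p = 0.054). It passed under 4 of the 17 alternatives run. These were a filter on dim genes (adjusted p = 0.022), an intensity trend in the spread (0.016), array weights (0.022) and the set of 4 arrays as a block (0.0498). Under the remaining alternatives it did not pass, with an adjusted p of 0.13 without that set and of 0.25 at the highest. The differences of 0.27 in ErbB2 KI and 0.21 in ERRα KO hearts were not called (adjusted p = 0.91 and 0.55).

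Atf5, a related factor that in mammalian cells is tied to the mitochondrial unfolded protein response, read 7.69, 7.75 and 7.53 in the WT arrays, 7.64, 7.87 and 7.94 in the ErbB2 KI arrays, 7.99, 8.17 and 7.90 in the ERRα KO arrays and 8.07, 8.58 and 8.03 in the KI:KO arrays. All ERRα KO and all KI:KO arrays lay above all WT arrays, and KI:KO replicate 2 was the highest of the 12. The rise of Atf5 in KI:KO hearts was 0.57 ± 0.15 (adjusted p = 0.043), and a difference of 0.36 in ERRα KO hearts was not called (adjusted p = 0.31). The call in KI:KO hearts was lost when any WT array or KI:KO replicate 1 or 2 was left out (differences of 0.40 to 0.65), without the set of 4 arrays (0.71, adjusted p = 0.071), when each array was centred on its median (0.55, adjusted p = 0.059) and in a fit of the 2 groups alone (adjusted p = 0.13).

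Ddit3 encodes CHOP, the pro-apoptotic factor downstream of ATF4, and Trib3 a pseudokinase that ATF4 and CHOP induce. Ddit3 ranged from 6.30 to 6.86 and Trib3 from 4.83 to 5.35 over the 12 arrays, and neither separated any genotype from WT. In KI:KO hearts the difference from WT was -0.09 for Ddit3 (95% confidence interval -0.41 to 0.23) and -0.07 for Trib3 (-0.36 to 0.23). Neither interval excludes a modest change in either direction. Ddit3 was lower in all KI:KO arrays than in all ErbB2 KI arrays (6.31 to 6.56 against 6.69 to 6.80), a difference of -0.30 that was not called (adjusted p = 0.36).

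Asns, which makes asparagine from aspartate and glutamine and whose promoter match is shown above, read 5.51, 5.63 and 5.68 in the WT arrays, 5.83, 6.02 and 6.04 in the ErbB2 KI arrays, 5.93, 6.08 and 6.11 in the ERRα KO arrays and 6.33, 6.29 and 6.30 in the KI:KO arrays. The WT arrays lay below every other array and the KI:KO arrays above every other array, while those of ErbB2 KI and ERRα KO overlapped. The rise of Asns was 0.70 ± 0.09 in KI:KO hearts (95% confidence interval 0.50 to 0.90, adjusted p = 0.0011) and 0.43 ± 0.09 in ERRα KO hearts (adjusted p = 0.033). In ErbB2 KI hearts it was higher by 0.36 (0.15 to 0.56), which was not called over all genes (adjusted p = 0.61), and since adjustment was made within each comparison the ERRα KO call alone does not show a larger effect there. Without the set of 4 arrays the KI:KO difference was 0.71 (adjusted p = 0.024). The ERRα KO call was less firm, since the difference stayed between 0.38 and 0.47 but missed the threshold without any WT array, without ERRα KO replicate 2 or 3, without the set of 4 arrays (adjusted p = 0.21) and after centring (adjusted p = 0.063).

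Phgdh and Psat1 catalyse successive steps of serine synthesis from a glycolytic intermediate. Phgdh ranged from 4.24 to 5.01, with the highest value in ERRα KO replicate 2, and its KI:KO difference was 0.03 (95% confidence interval -0.33 to 0.40). Psat1 read 4.71, 4.60 and 4.46 in the WT arrays, 4.81, 4.63 and 4.49 in the ErbB2 KI arrays, 4.91, 4.71 and 4.48 in the ERRα KO arrays and 5.04, 4.97 and 4.81 in the KI:KO arrays. All KI:KO arrays lay above all WT arrays, by 0.35 ± 0.13 on average, which was not called (adjusted p = 0.15). With the replicate number as a block it was (adjusted p = 0.047). Psat1 fell from replicate 1 to replicate 3 in every genotype, although over all genes the numbers did not pair the arrays.

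Mthfd2, the mitochondrial folate dehydrogenase and cyclohydrolase that carries one-carbon units from serine towards purine synthesis and is scarce in most adult tissues, had the largest KI:KO difference among the members. Its log2 values were 4.58, 5.40 and 4.58 in the WT arrays, 4.67, 4.83 and 5.32 in the ErbB2 KI arrays, 5.36, 5.94 and 5.08 in the ERRα KO arrays and 6.40, 6.11 and 6.26 in the KI:KO arrays. All KI:KO arrays lay above all others, while the remaining genotypes overlapped. Mthfd2 rose by 1.41 ± 0.26 in KI:KO hearts (95% confidence interval 0.84 to 1.97, adjusted p = 0.0078), and the difference of 0.61 in ERRα KO hearts (0.04 to 1.18) was not called (adjusted p = 0.35).

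The highest Mthfd2 array of WT, ErbB2 KI and ERRα KO was in each case the one from the set of 4 arrays, by 0.82, 0.58 and 0.72 above the mean of the other 2. In KI:KO hearts the array of the set was 0.01 above the others. Without the set the KI:KO difference from WT was 1.67 (adjusted p = 0.0017). Mthfd2 in WT replicates 1 and 3 lay near the array medians of 4.58 to 4.65, so its fold change was measured against dim signal.

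Fgf21, a secreted hormone that muscle releases under mitochondrial stress, ranged from 4.03 to 4.63 over the 12 arrays. Its difference from WT was 0.03 for ErbB2 KI, -0.10 for ERRα KO and -0.01 for KI:KO, the last with a 95% confidence interval of -0.35 to 0.33. No genotype separated from WT, although the motif stands in its promoter window. The values of Fgf21, Phgdh and Psat1 lay near the array medians, as did those of Mthfd2 in WT and ErbB2 KI hearts apart from the arrays of the set, and how much of such dim signal is transcript was not tested.

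**Figure D2:**
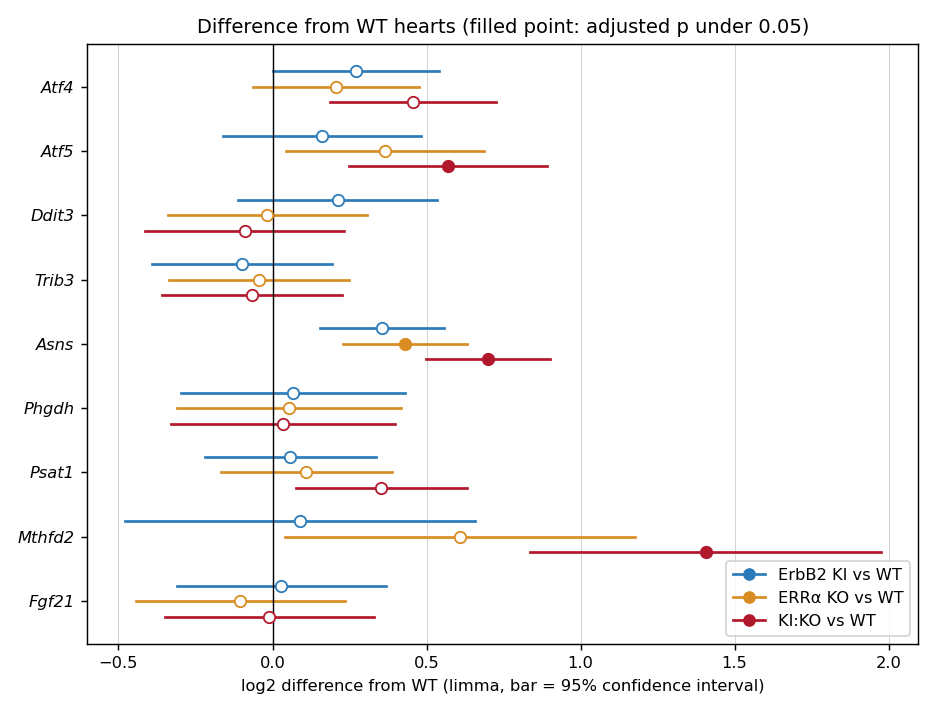
Difference from WT (x axis, log2 units) of the 9 genes in the 3 mutant genotypes, from limma over all genes, with 95% confidence intervals as bars and filled points at an adjusted p under 0.05. The 4 filled points are Atf5, Asns and Mthfd2 in KI:KO and Asns in ERRα KO hearts.

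Whether both lesions together differed from either alone was asked next. Against ErbB2 KI hearts, KI:KO hearts had Mthfd2 higher by 1.32 ± 0.26 (adjusted p = 0.015), the 1 member called of 9, where 3.91% of all genes were called. This call was lost without ErbB2 KI replicate 1 or 2 or KI:KO replicate 1 (differences of 1.18 to 1.26, adjusted p = 0.062 to 0.073). Asns, Atf5 and Psat1, which had an unadjusted p under 0.05, were higher by 0.34, 0.41 and 0.30 (adjusted p = 0.065, 0.18 and 0.28). The arrays did not overlap for these genes, for Mthfd2 or for Ddit3, the last being lower. Against ERRα KO hearts no member was called, where 0.329% of all genes were called. Mthfd2 and Asns, which had an unadjusted p under 0.05, were higher by 0.80 and 0.27 (adjusted p = 0.27 and 0.29), with no overlap of the arrays. The share of all genes without overlap was not counted against either single mutant, so these separations have no background to be read against. Without the set of 4 arrays the Mthfd2 difference from ERRα KO was 1.03 and passed (adjusted p = 0.023).

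Averaged over both ErbB2 genotypes, loss of ERRα went with higher Mthfd2 (0.96, adjusted p = 0.0074), Asns (0.39, adjusted p = 0.0034) and Atf5 (0.39, adjusted p = 0.046), 3 of 9 members where 6.78% of all genes were called. Mthfd2 and Asns passed this test under each of the 21 alternatives run, and Atf5 under 9. Tests of 2 groups alone were not among those 21. Averaged over both ERRα genotypes, the ErbB2 knock-in called 0 of 9, where 0.122% of all genes were called, although Atf4, Asns and Mthfd2 had an unadjusted p under 0.05. The Asns value was 0.31 (adjusted p = 0.12) and passed after the filter on dim genes (adjusted p = 0.038). The interaction of the alleles, which asks whether the KI:KO difference exceeds the sum of the single differences, called 0 of 9 members (none with an unadjusted p under 0.05), where 0.00902% of all genes were called. For Asns it was -0.09 (95% confidence interval -0.37 to 0.20) and for Mthfd2 0.71 (-0.10 to 1.51).

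Wider lists of the same pathway, compiled with earlier results of these data known, placed the members in context. Of 26 measured further ATF4 targets, 5 rose and 1 fell in KI:KO hearts, 1 rose in ERRα KO hearts and none was called in ErbB2 KI hearts, with a median of 0.15 in KI:KO hearts. Of all genes 5.60% were called in KI:KO and 2.35% in ERRα KO hearts, and 1 of 26 is near the latter share. Of the 5 that rose, 3 encode amino acid transporters of the plasma membrane. Slc1a5, the glutamine carrier ASCT2, read 6.59, 6.74 and 6.67 in the WT arrays, 7.61, 7.59 and 7.22 in the ErbB2 KI arrays, 7.68, 7.43 and 7.27 in the ERRα KO arrays and 8.01, 8.10 and 7.62 in the KI:KO arrays. Every array of the 3 mutant genotypes lay above every WT array. Slc1a5 rose by 1.25 in the cross (adjusted p = 7.6e-04) and by 0.80 after loss of ERRα alone (adjusted p = 0.019), the second call being lost without any WT array or without ERRα KO replicate 1 or 2. The 0.81 in ErbB2 KI hearts was not called (adjusted p = 0.23).

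Slc3a2 and Slc7a5, the heavy and light chains of the large neutral amino acid transporter, rose in KI:KO hearts by 0.51 (adjusted p = 0.0040) and 0.56 (adjusted p = 0.0071), the latter call being lost without the set of 4 arrays (adjusted p = 0.076). Slc3a2 averaged 8.44 ± 0.03 (SD, n = 3) in WT hearts, 8.46 ± 0.08 in those of ErbB2 KI mice, 8.75 ± 0.06 in those of ERRα KO mice and 8.96 ± 0.09 in the cross. The 6 arrays without ERRα lay above the 6 with it, and the average over ERRα loss was 0.40 (adjusted p = 0.0015). Cebpb, which encodes the partner of ATF4 on the motif shown above, rose by 0.90 in KI:KO hearts (adjusted p = 0.0015), with 6.17 ± 0.15 in WT and 7.06 ± 0.17 in KI:KO. Got1, the cytosolic aspartate aminotransferase, was 0.38 higher in the cross (adjusted p = 0.059) and passed in the average over ERRα loss (0.31, adjusted p = 0.025), which 11 of 21 alternatives kept. Vldlr, the very low density lipoprotein receptor, was the target that fell, with -0.64 in KI:KO hearts (adjusted p = 0.0033).

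Ddit4, which encodes the mTORC1 inhibitor REDD1, followed another pattern. It read 6.85, 6.86 and 6.93 in the WT arrays, 6.76, 6.47 and 6.36 in the ErbB2 KI arrays, 6.29, 6.64 and 6.24 in the ERRα KO arrays and 7.56, 7.48 and 7.86 in the KI:KO arrays. Both single mutants lay wholly below WT and the cross wholly above it. In KI:KO hearts Ddit4 rose by 0.75 against WT (adjusted p = 0.0087) and by 1.24 against ERRα KO hearts (adjusted p = 0.0036). The values of -0.35 in ErbB2 KI and -0.49 in ERRα KO hearts were not called (adjusted p = 0.90 and 0.11).

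Among 18 cytosolic aminoacyl-tRNA synthetases, which charge tRNAs and are commonly induced by ATF4, 1 was called, near the share of all genes called in KI:KO hearts (5.60%). Gars, the glycyl-tRNA synthetase, read 9.12, 9.06 and 9.08 in the WT arrays, 9.20, 9.10 and 9.14 in the ErbB2 KI arrays, 9.82, 9.72 and 9.74 in the ERRα KO arrays and 9.99, 10.02 and 9.88 in the KI:KO arrays. The 6 arrays without ERRα lay well above the 6 with it. Relative to WT, Gars rose by 0.67 (ERRα KO, adjusted p = 8.4e-04) and 0.88 (KI:KO, adjusted p = 8.1e-05), and both calls held under all 17 alternatives run. The other 17 synthetases were not called against WT, and the list's median was 0.07 for KI:KO and -0.05 for ERRα KO. Sars, Nars and Lars, the seryl-, asparaginyl- and leucyl-tRNA synthetases, were 0.18 higher, 0.06 higher and 0.22 lower than WT in KI:KO hearts.

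**Figure D3:**
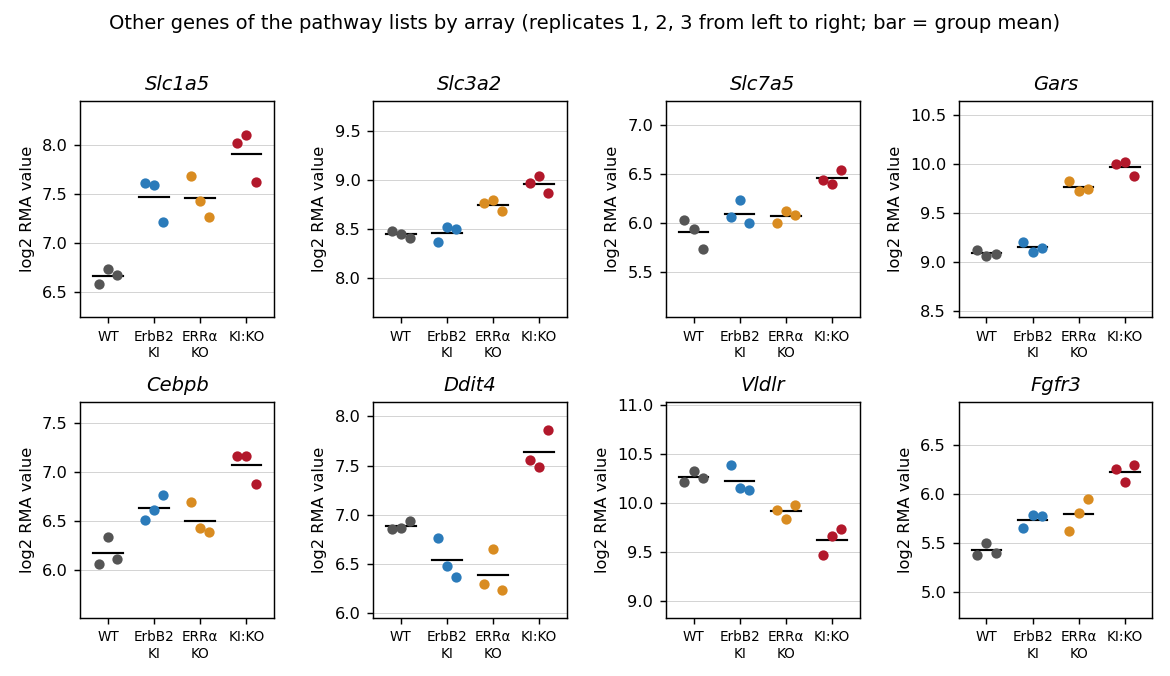
Log2 RMA value (y axis, same height in every panel) of 8 genes of the wider lists in each array, by genotype, with replicates 1, 2 and 3 from left to right and a bar at the group mean. Gars and Slc3a2 are high in the ERRα KO and KI:KO arrays, Slc1a5 in all mutant arrays, Ddit4 in the KI:KO arrays, and Vldlr is lowest in the KI:KO arrays.

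Of 19 further serine and one-carbon enzymes, 1 was called against WT, in ERRα KO hearts, where 2.35% of all genes were called. In the average over ERRα loss 2 were called, where 6.78% of all genes were called. Aldh1l2, the mitochondrial formyltetrahydrofolate dehydrogenase, rose by 0.72 in ERRα KO hearts (adjusted p = 0.033, lost without WT replicate 1 or 3, ERRα KO replicate 1 or 2, or the set of 4 arrays, and in both tests of the 2 groups alone) and was 0.42 higher in KI:KO hearts (adjusted p = 0.17). In the average over ERRα loss it rose by 0.49 (adjusted p = 0.018), which all 21 alternatives kept. Mthfd2l, the close relative of Mthfd2, read 6.82 ± 0.09 in WT and 6.92 ± 0.05 in KI:KO hearts, a difference of 0.10 (adjusted p = 0.70). It rose by 0.26 in the average over ERRα loss (adjusted p = 0.037), a call that 9 of 21 alternatives kept. The list's median was 0.03 in KI:KO hearts.

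Mitochondrial chaperones and proteases, the targets of the mitochondrial unfolded protein response, had a median of -0.06 in KI:KO hearts, and 2 of 14 were called, both lower, where 5.60% of all genes were called. Clpx, the unfoldase of the matrix protease ClpXP, fell by 0.43 (adjusted p = 0.011), and Spg7, a subunit of the inner membrane m-AAA protease, fell by 0.49 (adjusted p = 0.013). Both calls were lost without the set of 4 arrays (adjusted p = 0.079 and 0.12), and that of Spg7 also without WT replicate 1 or 2 or KI:KO replicate 1. Hspe1, the co-chaperonin of the matrix, was 0.42 higher in KI:KO hearts and was not called.

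Of 17 eIF2 kinases and regulators, Dnajc3, an inhibitor of the kinase PERK, was the 1 called, rising by 0.54 in KI:KO hearts (adjusted p = 0.036). That count is near the share of all genes called in KI:KO hearts (5.60%). Its values of 9.44, 9.51 and 8.97 in the KI:KO arrays placed replicate 3 nearest to the 8.74 to 8.81 of WT, and the call was lost without any WT array or KI:KO replicate 1 or 2. ER chaperones and other unfolded protein response genes had a median of 0.22 in KI:KO hearts, with 1 of 23 called, also near 5.60%. That gene, the ER protein Sdf2l1, rose by 1.02 (adjusted p = 0.024) with 7.87, 7.47 and 6.69 in the KI:KO arrays against 6.08 to 6.52 in WT, and its call was lost without WT replicate 1 or 3 or KI:KO replicate 1 or 2. Manf and Creld2, secreted ER stress proteins, were likewise high in KI:KO replicates 1 and 2 (6.72 and 6.57, and 9.06 and 8.92) and at 5.82 and 7.87 in replicate 3, against WT means of 5.76 and 7.94. Asns and Mthfd2 did not share this split, with replicate 3 at 6.30 and 6.26. Replicate 3 is the KI:KO array of the set of 4. In the reported fit Manf and Creld2 were not called against WT (limma, adjusted p = 0.12 and 0.15). Both were called with array weights, without the set of 4 arrays and without KI:KO replicate 3.

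Of 7 receptors and co-receptors of FGF21 and GDF15, Fgfr3 was the 1 called in KI:KO hearts, where 5.60% of all genes were called. It rose by 0.80 (adjusted p = 8.4e-04) from 5.43 ± 0.07 in WT to 6.23 ± 0.09. The FGF21 co-receptor Klb was 4.32 ± 0.12 in WT and 4.15 ± 0.44 in KI:KO hearts.

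**Figure D4:**
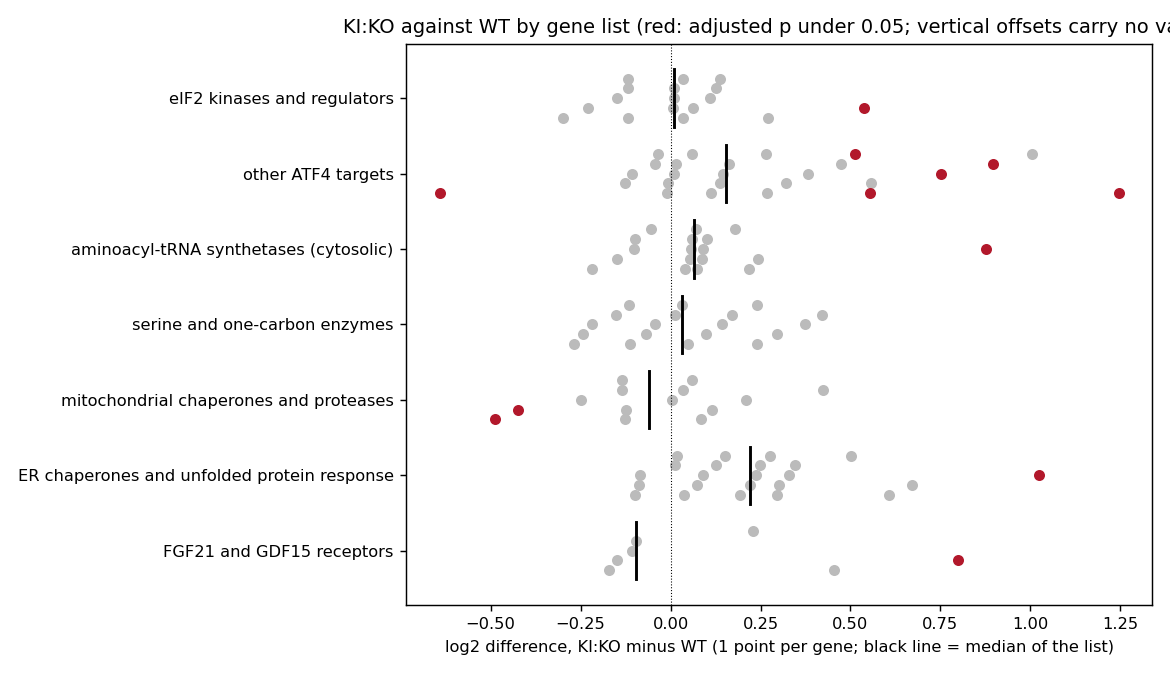
Difference between KI:KO and WT (x axis, log2 units) of each measured gene in 7 lists related to the response, 1 point per gene, in red at an adjusted p under 0.05, with a black line at the list's median. Medians lie between -0.10 for the receptors and 0.22 for the ER genes, and 12 points are red.

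Marker mRNAs of cell types, cardiomyocytes included, differed between the genotypes as well. These are array values, on which a marker has no true 0. Of all genes, 5.60% were called against WT in the cross, 2.35% after loss of ERRα alone and 0.0135% with the knock-in alone. Whether 1 call in a short marker list exceeds these shares was not tested. KI:KO hearts had 9 of 12 macrophage markers called higher (Cd14 by 0.78, Itgam by 1.05) and none was called in ERRα KO hearts, where the median was 0.43. Averaged over the 12 markers, the arrays of each genotype spanned 6.996 to 7.184 (WT mice), 6.994 to 7.152 (ErbB2 KI mice), 7.230 to 7.804 (ERRα KO mice) and 7.762 to 7.975 (KI:KO mice) on the log2 scale. Of 8 fibroblast markers 1 rose in KI:KO hearts (Postn, by 1.52), and the list's mean was 8.90 to 8.95 in WT and 9.19 to 10.2 in KI:KO arrays. Mthfd2, Asns and Atf5 were highest in the same hearts, and the part of these cells in their values was not tested. Of 7 adipocyte markers 1 (Ucp1, by 2.70) rose in ERRα KO hearts and none was called in ErbB2 KI or KI:KO hearts. Their mean was nonetheless as high in the ErbB2 KI arrays (6.47 to 7.35) as in those of ERRα KO mice (6.82 to 7.06), against 5.94 to 6.05 in WT and 6.01 to 6.52 in KI:KO arrays, and Ucp1 was 2.92 higher in ErbB2 KI hearts (adjusted p = 0.25). Among 9 cardiomyocyte markers Myl2 fell by 0.50 in KI:KO hearts. Of 7 endothelial markers 1 was called against WT (Kdr, -0.63 in KI:KO hearts). Of 7 skeletal muscle markers Tnni2 was the 1 called, higher by 0.74 after loss of ERRα alone and by 0.87 in the cross. None of 8 lymphocyte and neutrophil markers was called.

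As a description over the 12 arrays, which include the genotype differences themselves, Asns correlated with Atf4 (Pearson r = 0.81), Mthfd2 (0.79) and Atf5 (0.76), and Atf5 with Mthfd2 (0.79). Atf4 was less close to Atf5 (0.64) and to Mthfd2 (0.49). Psat1 had r of 0.35 to 0.61 to Atf4, Atf5, Asns and Mthfd2, and Phgdh had r of -0.10 to 0.34. For Ddit3, Trib3 and Fgf21, r to the same genes lay between -0.48 and 0.11. Among all genes, those with the highest r to Asns were Fgfr3 (0.96), Ier3 (0.94) and Plekho1 (0.92). The nearest to Mthfd2 were Mfsd11 (0.96), the interferon-inducible gene Ifi204 (0.95) and Parp6 (0.94), and the nearest to Atf5 were E130309D02Rik (0.95), Spsb4 (0.95) and Eps8 (0.91). With 22180 genes compared over 12 arrays, high values arise for some genes in any case.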

How the data were processed

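The deposited table holds log2 values for each probe set in each of the 12 arrays, which the authors made with the RMA algorithm of Expression Console (Affymetrix, version 1.4.1). No further normalization was applied. The build behind the arrays' annotation is not given in the sources used here. The annotation given for the 41345 probe sets named a single gene for 23521, several genes for 1820 and no gene for 16004, and only the first kind was used. A gene was its probe set with the highest mean, which left 22180 genes.

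Tests used limma (3.58.1) under R (4.3.3), in a model of 4 group means without covariates, with Benjamini-Hochberg adjustment over all genes within each comparison and two-sided tests. Residual degrees of freedom were 8 and prior degrees of freedom 3.81. The labels call the arrays biological replicates. An exact permutation test of 3 arrays against 3 cannot go below 0.1, and the number of arrays limits the precision. The fit was tested on simulated data.

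The members and lists were chosen with earlier results of these data known. Named genes were the members, the 4 genes with the smallest p of each pathway list, called genes of 3 lists (eIF2 kinases, other ATF4 targets, serine and one-carbon enzymes), the 3 genes nearest to each called member, marker genes and the targeted genes. Manf and Creld2 belong to the 4 of their list.

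Alternatives were the methods' one-way analysis of variance of the 2 groups, limma on those groups alone, dropping dim genes (at or below 4.67, the 40th percentile of gene means), averaging the probe sets of a gene, quantile normalization, median centring, array weights, an intensity trend, a block for the replicate number, the methods' threshold on limma's p and leaving out each array. A block for the set of 4 arrays and leaving the set out were added after seeing the data. The analysis of variance and limma on 2 groups alone were run only for comparisons of 2 groups, not for averages or the interaction. Promoter sequences came from RefSeq (GRCm38.p6). Plots were made in matplotlib 3.10.9 (Python 3.11.15).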

Additional observations from a re-analysis of the deposited data

Results flagged for a closer look

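Ddit4 was the gene among those named whose response to one allele differed with the other by a test of the difference itself. The interaction of the alleles was 1.59 on the log2 scale (limma, adjusted p = 0.049), with all single-mutant arrays below WT and all KI:KO arrays above. The adjusted p lay between 0.0055 and 0.19 over the 21 alternatives, of which 10 passed. It failed when any of 8 arrays was left out (each WT array, replicate 2 of ErbB2 KI, replicates 1 and 3 of ERRα KO, and replicates 1 and 2 of KI:KO), with the replicate number or the set of 4 arrays as a block, or after quantile normalization.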

How the results depend on the processing

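The direction of no called member turned under any alternative. Of 723 member values under an alternative, 679 kept their side of the threshold, 36 lost it and 8 gained it. Only a called difference could be lost, and most of the 41 member differences followed were not called. Against WT, the KI:KO calls of Asns and Mthfd2 each passed under 16 of 17 alternatives, and that of Atf5 under 8. The Asns call in ERRα KO hearts passed under 8 of 17, and the Mthfd2 call against ErbB2 KI under 13 of 17. The number of members called against WT was 0 for ErbB2 KI, 1 for ERRα KO and 3 for KI:KO. The methods' test with adjustment over all genes called 0 members in each, with adjusted p of 0.0505 for Asns and 0.16 for Mthfd2 in KI:KO hearts, and 0 for KI:KO against ErbB2 KI, where the reported fit called 1. For ERRα KO against WT, limma on the 2 groups, median centring and leaving out the set of 4 arrays also gave 0. Leaving out the set gave 1 for KI:KO against ERRα KO, where the reported fit called 0. The filter on dim genes gave 2 for KI:KO against ErbB2 KI and 1 for the averaged ErbB2 knock-in, where the reported fit called 0. The methods' threshold, on limma's unadjusted p, gave 2, 3 and 5 against WT, where 4.30%, 10.4% and 14.6% of all genes met it. It gave 2 and 4 for KI:KO against ERRα KO and ErbB2 KI, and 2 for the averaged ErbB2 knock-in. For these last comparisons the share of all genes was not counted, so their counts have no background to be read against. Leaving out 1 array gave 0 to 1 for ERRα KO and 2 to 3 for KI:KO against WT, 0 to 1 for KI:KO against ErbB2 KI and 2 to 3 for averaged ERRα loss.

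With the replicate block, KI:KO against WT called 4 members, Psat1 in addition, and no other call on a member changed. Over all genes the replicate numbers did not pair the arrays, since deviations of same-numbered arrays correlated at -0.19 to 0.20. Only 1 of 12 arrays was most like one of its own number.

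Counts over all genes moved as well. Against WT they were 3, 521 and 1243 for ErbB2 KI, ERRα KO and KI:KO, with 0 to 13, 110 to 908 and 81 to 1865 under the alternatives and 2 to 15, 210 to 332 and 710 to 1235 when 1 array was left out. For KI:KO they were 73 against ERRα KO (0 to 294) and 867 against ErbB2 KI (0 to 1358), and for the interaction 2 (1 to 22). With 3 hearts a group, the intervals around the uncalled members remain wide, and the cause of the lost calls was not tested.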
